A study of Mus musculus with 10 samples.

Results

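The comparison described here sets the 2 libraries labelled NIC against the 8 libraries of the 3 genotypes that add a protein arginine methyltransferase (PRMT) to NIC, and asks what sets NIC apart from every one of them. All 10 libraries of the series take part, chosen by their genotype labels: 2 NIC, 3 NIC-Prmt1, 3 NIC-Carm1 and 2 NIC-Prmt6. Each is poly(A)-selected RNA of epithelial cells prepared from mammary glands of FVB mice, so the strain, the tissue and the NIC allele are shared by all 4 groups. The labels do not spell out NIC, and the promoter of each transgene, the age of the mice, the number of animals behind a library and whether replicates are separate animals are not stated in the labels. The p-values therefore measure the spread between these libraries, which may be technical.

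PRMTs transfer methyl groups to arginines of histones and other proteins. PRMT1 and CARM1 make asymmetric dimethylarginine and often act as transcriptional coactivators, and PRMT6 makes the same mark, among others on histone H3. The mammary gland is a double-layered epithelium in a stroma of fibroblasts, fat, vessels and resident immune cells. Tissue macrophages of the alternatively activated kind carry the mannose receptor and scavenger receptors, and mast cells store proteases and histamine in granules. ATF4 is a transcription factor that cells translate when amino acids are short or proteins misfold, and its targets import and make amino acids.

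Values are the authors' normalised read counts. The 15694 genes tested reached 10 in 2 or more libraries. The difference of a gene is the NIC mean minus the plain mean of the 3 PRMT group means on the log2(value + 1) scale, so that each PRMT genotype weighs the same and a positive difference means higher in NIC. This scale understates the change of low genes. A gene passed where the limma test gave a Benjamini-Hochberg adjusted p under 0.05. It is called set apart where, in addition, both NIC libraries lay beyond all 8 PRMT libraries and the difference from each of the 3 group means was at least 1 on the log2 scale (2-fold).

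The recovered depth was 21589274 to 30260921 reads per library. On the third principal component, with 15.62% of the variance, the NIC libraries lay at 42.5 and 48.3 and the other 8 between -32.3 and 10.4. The 2 NIC-Prmt6 libraries, and NIC-Carm1 replicates 2 and 3, were far more alike than other replicates, and NIC-Carm1 replicate 1 stood apart from both of its partners. NIC-Prmt1 replicates 1 and 3 carried skin genes, summing to 1069 and 95.9 CPM (reads scaled to the same library total) against 2.94 to 9.55 in the other 8 libraries. Every value of NIC rests on 2 libraries.

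The targeted genes were read first. Carm1 stood at 1556 and 1567 in the NIC libraries and at 2025 to 2479, median 2299, in the 8 PRMT libraries, a log2 difference of -0.54, SE 0.08, limma adjusted p = 0.0016. It was higher in all 3 PRMT groups and not in NIC-Carm1 alone, the differences of NIC from NIC-Prmt1, NIC-Carm1 and NIC-Prmt6 being -0.46, -0.57 and -0.60. Prmt6 was 873 and 909 in the NIC-Prmt6 libraries, against 387 and 451 in NIC, and 224 to 355 in the NIC-Prmt1 and NIC-Carm1 libraries. Prmt1 did not separate the groups: it was 2675 and 3077 in NIC and 2702 to 3258 in the libraries labelled NIC-Prmt1. Carm1 did not differ among the 3 PRMT groups by the moderated F test of limma (adjusted p = 0.402). The levels of Prmt1 and Carm1 as counted here thus do not check the labels NIC-Prmt1 and NIC-Carm1. The group names below are those of the labels.

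In all, 4792 genes passed (30.5%), 2368 of them higher in NIC (15.1% of genes tested) and 2424 lower (15.4%). The median difference over all genes tested was 0 to 2 decimals. Of the 4792, 1619 higher (10.3% of genes tested) and 1377 lower (8.77%) showed no overlap of NIC and PRMT libraries. The set-apart genes were far fewer, 97 higher in NIC (0.618% of genes tested) and 201 lower (1.28%). For 224 of these 298 the F test found no difference among the 3 PRMT groups, and for 74 it did, against 6281 genes (40%) of all tested. Against each of the 3 groups alone, 59 of the 97 higher and 123 of the 201 lower had a limma adjusted p under 0.05. The others met the set-apart rule without passing against every group. The genes set apart upward took 1.34 to 1.51% of the reads of the NIC libraries and 0.411 to 0.667% in the PRMT libraries. Those set apart downward took 0.217 to 0.295% in NIC and 0.560 to 0.814% in the PRMT libraries. Both sets were chosen by these same values, so the shares describe them and test nothing. Against single groups, which share the NIC libraries, 14.4% of genes were higher in NIC and 15.2% lower than in NIC-Prmt1. The shares were 9.36% and 6.65% against NIC-Carm1, and 17.8% and 19% against NIC-Prmt6. At the 2-fold limit, Prss22 was just inside (smallest difference 1.0004) and Gm16062 just outside (0.9966), and among lower genes Pilrb2 was just inside (-1.011) and Has2 just outside (-0.99996).

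**Figure D1:**
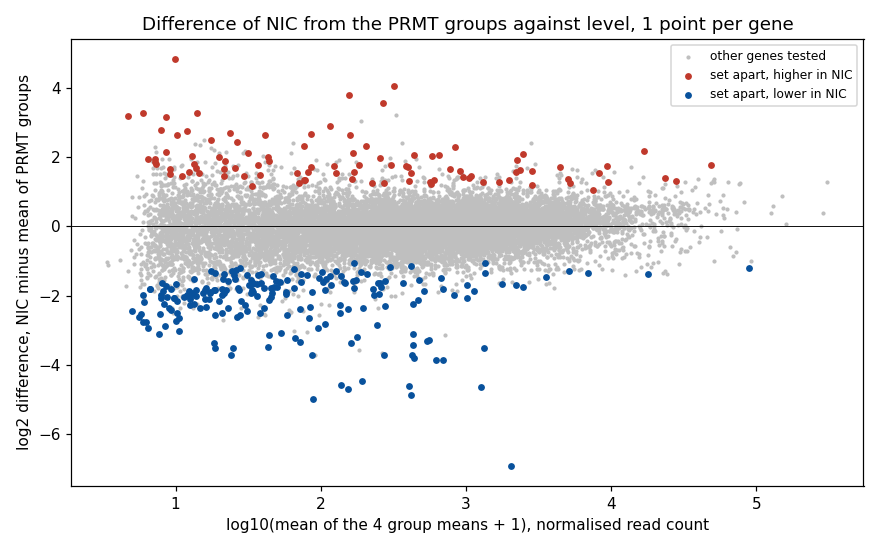
Log2 difference of NIC from the mean of the PRMT groups (vertical axis) against the log10 mean normalised read count (horizontal axis), 1 point per gene tested, with the 97 genes set apart upward in red and the 201 set apart downward in blue. The blue points reach -6.90 at Retnla, further from 0 than any red point.

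The highest-ranked gene above all PRMT groups was Chac1, which encodes a glutathione-degrading enzyme and is a target of ATF4. It lies at chromosome 2, 119351229 to 119354381 of GRCm38. Its values were 1103 and 1045 in NIC and 37.3 to 92.0, median 59.0, in the 8 PRMT libraries, a log2 difference of 4.06, SE 0.26, limma adjusted p = 6.95e-05. The lower NIC library was 11.4 times the highest PRMT library. Trib3, a pseudokinase that ATF4 induces and that restrains it, was 1826 and 2195 in NIC and 238 to 750.1, median 475, elsewhere, a log2 difference of 2.28, SE 0.24, limma adjusted p = 0.00039. Mthfd2, a mitochondrial enzyme of folate metabolism, was 619.9 and 529 against 112 to 194, median 134, a log2 difference of 1.97, SE 0.14, limma adjusted p = 0.000111. That NIC and PRMT libraries did not overlap in these 3 genes follows from the set-apart rule.

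Of 25 ATF4 targets measured, 15 passed as higher in NIC (15.1% of all genes tested did) and 2 as lower, with 6 set apart and a list median of 0.67. The medians of NIC against NIC-Prmt1, NIC-Carm1 and NIC-Prmt6 were 0.66, 0.68 and 0.66, and these 3 comparisons share the NIC libraries. Beside Chac1, Trib3 and Mthfd2, the set-apart members were Slc7a11, the cystine transporter, at 1.77 (SE 0.21, limma adjusted p = 0.000721), Ddit4, an inhibitor of mTORC1, at 1.25 (SE 0.11, limma adjusted p = 0.000148), and Cth, which makes cysteine, at 1.17 (SE 0.31, limma adjusted p = 0.0176). Asns, asparagine synthetase, was higher by 1.12 (SE 0.11, limma adjusted p = 0.000261) and Ddit3, the stress factor CHOP, by 0.999 (SE 0.16, limma adjusted p = 0.00199). Atf4 itself differed less, by 0.50 (SE 0.15, limma adjusted p = 0.0273). The lower members were Stc2, a secreted glycoprotein, at -0.74 (SE 0.10, limma adjusted p = 0.00122), and Slc6a9, a glycine transporter, at -0.97 (SE 0.21, limma adjusted p = 0.00787). The serine synthesis genes Phgdh and Psph did not pass (0.17 and 0.35). The count of higher members was 9 when the 8 PRMT libraries were fitted as 1 group.

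The enzymes that load amino acids onto tRNAs, many of them known ATF4 targets, differed by less. Of 18 measured, 12 passed as higher (15.1% of all genes tested did) and 0 as lower. None was set apart, and the median was 0.39. Nars, for asparagine, was 6155 and 6460.5 in NIC and 3269 to 4520.0, median 3575, in the PRMT libraries, and Cars, for cysteine, was 1492 and 1593 against 769.6 to 1016, median 885. Both were named for passing without overlap, with differences of 0.80 (SE 0.10, limma adjusted p = 0.000672) and 0.78 (SE 0.11, limma adjusted p = 0.00108). Only 4 passed without NIC replicate 2 and 5 with the PRMT libraries as 1 group.

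Promoter sequences are shown for 2 of the set-apart ATF4 targets, because both hold the letters of the amino acid response core, and for 2 cytokine genes described next, which hold those of an AP-1 site. They are the 250 bases before the RefSeq start of each gene (GRCm38.p6), 5′ to 3′ on the gene's strand, with each match in capitals. Chac1 lies at chr2:119350992-119351241 on the plus strand, with the match starting 193 bases before the start, and Slc7a11 at chr3:50443614-50443863 on the minus strand, with matches 66 and 47 bases before it. Il11 lies at chr7:4778142-4778391 on the minus strand (98 bases before the start) and Lif at chr11:4257318-4257567 on the plus strand (228 bases before the start).
Chac1: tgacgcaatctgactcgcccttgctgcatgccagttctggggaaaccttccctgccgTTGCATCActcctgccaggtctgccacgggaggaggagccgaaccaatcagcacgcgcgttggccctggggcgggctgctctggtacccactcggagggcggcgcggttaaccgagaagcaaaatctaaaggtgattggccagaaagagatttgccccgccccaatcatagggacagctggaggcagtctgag
Slc7a11: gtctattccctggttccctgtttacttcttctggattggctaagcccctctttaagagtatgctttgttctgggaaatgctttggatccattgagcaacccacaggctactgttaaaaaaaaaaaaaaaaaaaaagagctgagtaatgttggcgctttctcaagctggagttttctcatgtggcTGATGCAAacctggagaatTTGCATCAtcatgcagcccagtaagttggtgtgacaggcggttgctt
Il11: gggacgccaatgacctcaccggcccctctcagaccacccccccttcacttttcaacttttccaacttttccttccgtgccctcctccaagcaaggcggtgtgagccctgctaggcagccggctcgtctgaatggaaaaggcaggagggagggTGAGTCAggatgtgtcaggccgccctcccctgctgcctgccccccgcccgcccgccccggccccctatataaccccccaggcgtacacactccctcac
Lif: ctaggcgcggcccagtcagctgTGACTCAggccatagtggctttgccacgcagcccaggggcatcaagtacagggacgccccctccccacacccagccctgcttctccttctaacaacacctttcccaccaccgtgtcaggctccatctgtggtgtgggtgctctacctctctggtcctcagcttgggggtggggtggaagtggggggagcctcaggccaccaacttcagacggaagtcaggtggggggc

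Both strands of 300 bases, from 250 before to 50 after each start, were searched. Of the set-apart genes, 79 higher ones matched the RefSeq table (83 promoters) and 145 lower ones (180 promoters). The ATF4 core TGATGCAA was in 6.02% of the promoters of the genes set apart upward, 0.556% of those set apart downward, 0.626% of those of all genes tested and 0.895% of all promoters given. Its 5 upward promoters belong to Chac1, Slc7a11 and the near-identical copies Bcl2a1a, Bcl2a1b and Bcl2a1d. The AP-1 letters TGANTCA were in 19.3%, 8.89%, 5.81% and 7.81% of the same sets, the same 3 Bcl2a1 copies included, and besides Il11 and Lif in the promoters of Il1a, Il1rn, Mmp13 and Plet1. The sterol element letters TCACNCCAC were in 6.02%, 1.67%, 1.17% and 1.24%, and not in the window of Insig1, a sterol-regulated gene. The other 4 motifs searched, the kB letters GGNNTTTCC, the heat shock core TTCNNGAA, the hypoxia core ACGTG and the dioxin core GCGTG, were in 8.43%, 4.82%, 20.5% and 45.8% of the upward promoters. Their shares of the promoters of all genes tested were 6.19%, 6.95%, 23.9% and 47.4%, and of the downward ones 9.44%, 5.56%, 13.9% and 23.3%. Of all promoters given, 5.82%, 8.52%, 19.6% and 32.4% held them. These are matches of letters and not binding sites.

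Cytokine genes formed the second group above all PRMT libraries. Il12b encodes the p40 chain shared by interleukins 12 and 23 (chromosome 11, 44400063 to 44414033). It was 429 and 525 in NIC and 9.01 to 96.9, median 41.2, in the PRMT libraries, a log2 difference of 3.79, SE 0.65, limma adjusted p = 0.00293. Il11, an interleukin of the IL-6 family, was 519.7 and 159 against 16.4 to 57.9, median 40.8, a log2 difference of 2.90, SE 0.41, limma adjusted p = 0.00125, and its NIC libraries differed from each other by 3.28-fold. Il10, an anti-inflammatory interleukin, was 220.2 and 231 against 19.1 to 57.6, median 35.5, a log2 difference of 2.66, SE 0.39, limma adjusted p = 0.00153. Because all 3 genes were chosen as set apart, their lack of overlap is part of that choice.

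Il1a, an interleukin 1 that signals inflammation, was 574 and 696 in NIC and 104 to 273, median 196, elsewhere (log2 difference 1.76, SE 0.32, limma adjusted p = 0.00388). Il1rn, the secreted antagonist of its receptor, was 983 and 971 against 85.9 to 370.4, median 271 (log2 difference 2.05, SE 0.21, limma adjusted p = 0.000323), so agonist and antagonist were both higher in NIC. Lif, leukemia inhibitory factor, was 8377 and 9690.1 against 1565 to 3784, median 3109 (log2 difference 1.71, SE 0.23, limma adjusted p = 0.00102). Of 16 cytokines of the IL-1, IL-6 and IL-12 families and TNF, 7 passed as higher and 1 as lower, with a median of 0.98. Of the 7, 6 were set apart. Among all genes tested 15.1% were higher, 15.4% lower and 0.618% set apart upward. The member that was lower was Il6, at -0.58 (SE 0.10, limma adjusted p = 0.00247). It stood at 3349 on average in NIC, 5773 in NIC-Prmt1, 2665 in NIC-Carm1 and 8269 in NIC-Prmt6, so NIC lay between the groups. Il1b did not pass (1.06, limma adjusted p = 0.0635).

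Among 16 chemokines that draw neutrophils and monocytes, 6 were higher and 2 lower, beside 15.1% and 15.4% of all genes tested. Of these chemokines 1, Cxcl2, was set apart. Cxcl2 was 4795 and 4816 in NIC and 843 to 2309, median 989, in the PRMT libraries (log2 difference 1.90, SE 0.08, limma adjusted p = 3.77e-06), where NIC-Prmt6 was highest. Cxcl1 was 14391 and 16951 against 3439.8 to 10976, median 4611 (log2 difference 1.44, SE 0.12, limma adjusted p = 0.00014), again with NIC-Prmt6 nearest. Ccl2, a monocyte attractant, did not pass (-0.39). Of 19 NF-kB targets 6 were higher and 0 lower, beside 15.1% of all genes tested that were higher. Only 3 were higher without NIC replicate 1, 3 on leaving out NIC replicate 2 and 3 with the PRMT libraries as 1 group. That last fit left 2 of the chemokines higher. Among the NF-kB targets, the mitochondrial superoxide dismutase Sod2 differed by 0.99 (SE 0.13, limma adjusted p = 0.000872). Another NF-kB target, Bcl2a1b, differed by 1.38 (SE 0.26, limma adjusted p = 0.00429). It is a near copy of its neighbours, so reads may be split between them.

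Markers of immune cells that can make these cytokines were read beside them. Of 7 neutrophil genes 0 passed by limma, edgeR or DESeq2, with 2 lower at an unadjusted p under 0.05. Of 9 B cell genes 0 passed by any of these tests or unadjusted. Among 13 T and NK cell genes 1, Ncr1, was lower (15.4% of all genes tested were). Their summed CPM was, in NIC and in the PRMT libraries in turn, 916 to 1545 and 741 to 1398 for neutrophils, 24.7 to 66.0 and 21.9 to 55.0 for T and NK cells, 4.82 to 42.1 and 4.03 to 61.4 for B cells. Of 15 genes of dendritic cells and MHC class II, 2 were higher and 3 lower, beside 15.1% and 15.4% of all genes tested. The summed CPM of these 15 was 846 to 1092 in NIC and 478 to 1073 in the PRMT libraries. The part of all these cells in the cytokine differences was not tested.

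**Figure D2:**
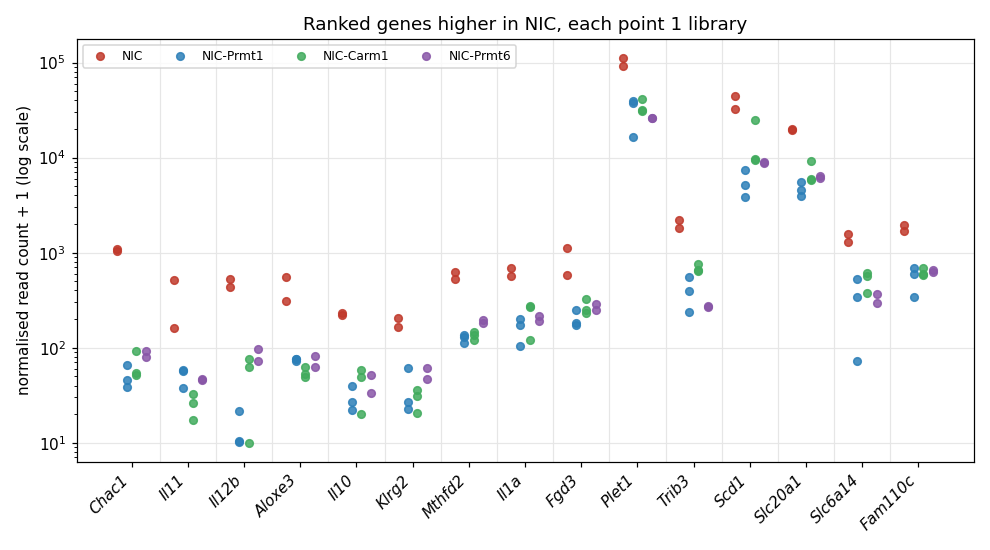
Normalised read count + 1 on a log axis for the 15 ranked genes above all PRMT groups, 1 point per library, coloured by group. By the rule that chose these genes, the red NIC points lie above every other point in each column. The Chac1 column has the widest gap.

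Lipid genes were the third group. Scd1 and Scd2 encode stearoyl-CoA desaturases, which make monounsaturated fatty acids, and lie 87591 bases apart on chromosome 19. Scd1 was 44135 and 32707 in NIC and 3822 to 24665, median 8849, in the PRMT libraries (log2 difference 2.16, SE 0.34, limma adjusted p = 0.00215), with NIC-Carm1 replicate 1 the highest PRMT library. Scd2 was 17626 and 14562 against 4530.1 to 6816, median 5775 (log2 difference 1.55, SE 0.13, limma adjusted p = 0.000147). The 2 are close paralogs, and how reads shared between them were counted is not given. Insig1, which holds back sterol regulatory element binding proteins and is also their target, was 4067 and 4613 against 1095 to 1808, median 1437 (log2 difference 1.57, SE 0.09, limma adjusted p = 4.88e-05).

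Of 24 genes of cholesterol synthesis and uptake 15 were higher and 0 lower, with a median of 0.47 and 1, Insig1, set apart. Dhcr7, the last enzyme of the pathway, was higher by 1.43 (SE 0.21, limma adjusted p = 0.00165) and Fdft1, squalene synthase, by 0.71 (SE 0.08, limma adjusted p = 0.00044). Of 15 fatty acid synthesis genes 4 passed, Scd1, Scd2, Me1 and Elovl6, all higher (15.1% of all genes tested were). Fasn, Acaca and Acly did not pass (-0.01, -0.32 and -0.35). The cholesterol count was 9 without NIC replicate 1 and 6 with the PRMT libraries as 1 group.

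Other ranked genes above the PRMT groups have varied roles. Plet1, a surface protein of luminal progenitors, was 111407 and 92026 in NIC and 16406 to 41459.5, median 31049, elsewhere (log2 difference 1.78, SE 0.29, limma adjusted p = 0.00229). Slc20a1, a phosphate transporter, was 19931 and 19375 against 3974 to 9269, median 5827 (log2 difference 1.75, SE 0.18, limma adjusted p = 0.000308). Aloxe3, an epidermal lipoxygenase, was 550.0 and 308 against 48.5 to 81.5, median 66.6 (log2 difference 2.63, SE 0.23, limma adjusted p = 0.000152). NIC did not overlap the PRMT libraries in any of them, as the set-apart rule requires. Slc6a14, an amino acid transporter, was 1301 and 1572 against 71.1 to 612, median 369 (log2 difference 2.07, SE 0.57, limma adjusted p = 0.0213), and its adjusted p reached 0.144 in alternative fits. Fgd3, Klrg2 and Fam110c completed the ranking at 1.72 (SE 0.24, limma adjusted p = 0.0012), 2.31 (SE 0.37, limma adjusted p = 0.00222) and 1.61 (SE 0.21, limma adjusted p = 0.000975).

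Cytosolic heat shock proteins, which fold proteins and rise in stressed cells, were higher in NIC for 14 of 17 genes and lower for 0. Among all genes tested 15.1% were higher. The list median was 0.66. Hsph1 was 19791 and 20693 in NIC and 4207 to 10657, median 6329.8, in the PRMT libraries (log2 difference 1.58, SE 0.13, limma adjusted p = 0.00014). Hspb1 was 47608 and 38560.0 against 10529 to 26577, median 18699 (log2 difference 1.39, SE 0.14, limma adjusted p = 0.000268) and was the 1 set-apart member. NIC lay furthest from NIC-Carm1, the list medians being 0.60, 1.09 and 0.50 against NIC-Prmt1, NIC-Carm1 and NIC-Prmt6. Hspa1a and Hspa1b, higher by 1.24 (SE 0.16, limma adjusted p = 0.000993) and 1.29 (SE 0.18, limma adjusted p = 0.00124), are near-identical copies whose reads may be split. The factor Hsf1 that drives these genes did not differ past the test (-0.05). The count was 5 with the PRMT libraries as 1 group.

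Of 26 genes of glycolysis and the hypoxia response, 14 were higher and 3 lower, and Egln3 and Slc2a1 were set apart. Egln3, the oxygen-sensing hydroxylase PHD3, was 5576 and 5322 in NIC and 586 to 2554, median 1623, elsewhere (log2 difference 2.09, SE 0.17, limma adjusted p = 0.00014), lowest in NIC-Prmt6. Slc2a1, the glucose transporter GLUT1, was higher by 1.28 (SE 0.14, limma adjusted p = 0.000452). The hypoxia targets Vegfa and Bnip3 did not pass (0.38 and -0.11). The higher count was 6 without NIC replicate 2 and 5 with the PRMT libraries as 1 group. Cyp1a1, the classical target of the aryl hydrocarbon receptor, was 838 and 616 in NIC and 10.7 to 302, median 29.8, in the PRMT libraries (log2 difference 3.57, SE 0.48, limma adjusted p = 0.00102), where NIC-Prmt6 held 267 and 302 and the rest 10.7 to 82.7. It was the 1 set-apart gene of 9 for this receptor and its targets, of which 2 were higher and 1, Ugt1a6a, which conjugates phenols, was lower at -1.31 (SE 0.21, limma adjusted p = 0.00225). Of all genes tested 15.1% were higher and 15.4% lower. The list median was 0.18, and the summed CPM overlapped, at 576 to 690.5 in NIC and 362 to 747 in the PRMT libraries. No member passed with the PRMT libraries as 1 group, and the higher count ran from 0 to 4 over the alternatives.

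The larger differences ran the other way. Retnla, a secreted protein that macrophages make under interleukin 4 (chromosome 16, 48842551 to 48844461), had the largest difference of all genes tested. It was 20.8 and 14.3 in NIC and 409 to 4686, median 2596, in the PRMT libraries, a log2 difference of -6.90, SE 0.61, limma adjusted p = 0.00017. Cd163, a scavenger receptor for haemoglobin, was 21.7 and 9.1 against 108 to 1019, median 443 (log2 difference -4.87, SE 0.54, limma adjusted p = 0.000486). F13a1, a coagulation factor subunit made by macrophages, was 61.4 and 48.1 against 425 to 2978, median 1343 (log2 difference -4.65, SE 0.38, limma adjusted p = 0.000141). In each gene the lowest PRMT library was NIC-Carm1 replicate 1, and NIC-Prmt6 was highest. That lowest library was 19.7, 4.98 and 6.91 times the higher NIC library for Retnla, Cd163 and F13a1.

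Lectins and pattern receptors of the same cells followed. Clec10a and Mgl2, galactose-binding lectins, neighbour each other on chromosome 11 with 18647 bases between them. Clec10a was 56.7 and 37.7 in NIC and 249 to 1439, median 622, elsewhere (log2 difference -3.86, SE 0.35, limma adjusted p = 0.000191). Mgl2 was 23.6 and 20.8 against 93.5 to 655, median 265 (log2 difference -3.72, SE 0.32, limma adjusted p = 0.000148). Fcna, a ficolin of the lectin complement pathway, was 27.4 and 13.002 against 256 to 793, median 481 (log2 difference -4.60, SE 0.34, limma adjusted p = 0.000111). None of the 3 overlapped, as the set-apart rule requires.

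Cd209d, Cd209f and Cd209g, of a lectin family clustered on chromosome 8 whose near-identical members may share reads, differed by -4.70, -3.71 and -4.57 (limma adjusted p = 0.00177, 0.00323 and 0.00866). Their NIC libraries disagreed: Cd209g was 43.5 and 0, against 82.2 to 302 in the PRMT libraries. Of 17 genes of alternatively activated macrophages, 15 passed as lower in NIC (15.4% of all genes tested did), 14 of them set apart, and 1, Arg1, as higher, with a median of -3.71. The medians against NIC-Prmt1, NIC-Carm1 and NIC-Prmt6 were -3.28, -3.16 and -4.57. Mrc1, the mannose receptor, was lower, at -3.50 (SE 0.49, limma adjusted p = 0.00128), Folr2, a folate receptor, at -3.12 (SE 0.25, limma adjusted p = 0.00014), and Lyve1, a hyaluronan receptor, at -2.23 (SE 0.30, limma adjusted p = 0.00113). Arg1, arginase 1, was higher at 0.80 (SE 0.13, limma adjusted p = 0.00206), opposite to the rest. Cbr2, a carbonyl reductase, did not pass (-0.44). The summed CPM of the list was 553 to 576 in NIC and 615 to 1602 in the PRMT libraries, without overlap. The lower count stayed at 14 or 15 in every one of 27 alternatives.

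General macrophage genes differed less. Of 13, 4 passed as lower (15.4% of all genes tested did) and 0 as higher, with a median of -0.51. Itgam, an integrin chain, was the 1 set-apart member at -1.62 (SE 0.29, limma adjusted p = 0.00377), and Csf1r, the receptor of the macrophage growth factor, was lower, at -0.75 (SE 0.25, limma adjusted p = 0.0429). Adgre1 (F4/80), Mertk and Trem2 did not pass (-0.42, -0.34 and 0.00). No general macrophage gene passed without NIC replicate 2 or with the PRMT libraries as 1 group. Their summed CPM was 452 to 545 in NIC and 391.7 to 924 in the PRMT libraries. In bulk RNA, fewer cells of a type and less RNA per cell cannot be told apart. The part of macrophage number in the other macrophage differences was not tested.

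**Figure D3:**
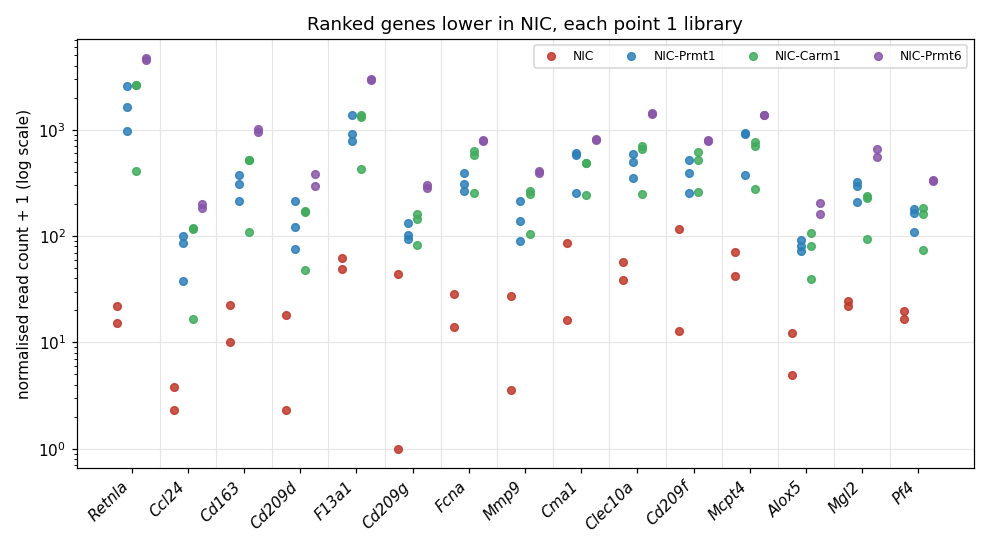
Normalised read count + 1 on a log axis for the 15 ranked genes below all PRMT groups, 1 point per library, coloured by group. By the rule that chose these genes, the red NIC points lie below every other point in each column. NIC-Carm1 replicate 1 is the lowest of the other 8 libraries in most columns.

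Chemokines that draw macrophages and eosinophils went with these receptors. Ccl24, an eosinophil attractant, had 4 reads in the 2 NIC libraries together and 926 in the 8 PRMT libraries. As a share of all recovered reads, its PRMT level was 56.3 times that of NIC, with an exact binomial 95% interval of 21.9 to 207 that covers counting error only. Ccl6 was 44.4 and 49.4 in NIC and 203 to 842, median 463, elsewhere (log2 difference -3.41, SE 0.23, limma adjusted p = 0.000111). Ccl8 was 52.0 and 37.7 against 148 to 365, median 226 (log2 difference -2.37, SE 0.23, limma adjusted p = 0.000248). Of 11 such chemokines 6 were lower (15.4% of all genes tested were), 4 of them set apart. Higher was 1, Ccl17, at 1.65 (SE 0.51, limma adjusted p = 0.0353). Pf4, platelet factor 4, which macrophages also make, was 18.9 and 15.6 against 73.2 to 339, median 171 (log2 difference -3.35, SE 0.32, limma adjusted p = 0.000248).

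Mast cell genes were the second group below all PRMT libraries. Mcpt4 and Cma1 encode chymases of mast cell granules. Mcpt4 was 41.6 and 70.2 in NIC and 276 to 1388, median 839, in the PRMT libraries (log2 difference -3.86, SE 0.42, limma adjusted p = 0.000476). Cma1 was 15.1 and 84.5 against 239.9 to 813, median 537 (log2 difference -3.81, SE 0.55, limma adjusted p = 0.00137). Cpa3, the carboxypeptidase of the same granules, was 43.5 and 84.5 against 248 to 1128, median 614 (log2 difference -3.32, SE 0.40, limma adjusted p = 0.000693). NIC replicate 2 was the higher NIC library in all 3. Neither NIC library overlapped the rest, as the rule that named these genes requires.

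Of 12 mast cell genes, 10 were lower (15.4% of all genes tested were), 8 of them set apart, and 0 higher. The list median was -2.57. The medians against NIC-Prmt1, NIC-Carm1 and NIC-Prmt6 were -2.22, -2.01 and -3.52. Tryptases Tpsb2 and Tpsab1 were lower, at -3.27 (SE 0.40, limma adjusted p = 0.00074) and -2.28 (SE 0.38, limma adjusted p = 0.00256), and Hdc, which makes histamine, at -1.56 (SE 0.31, limma adjusted p = 0.00595). Kit, the receptor mast cells need, did not differ past the test (0.07), and it is also a luminal progenitor gene, at 9665 on average in NIC. Because Kit holds most of the list's reads, its summed CPM was 333 to 428 in NIC and 400.3 to 702 in the PRMT libraries, and the sum does not follow the granule genes. Alox5, the lipoxygenase that starts leukotriene synthesis, was 11.3 and 3.9 against 38.3 to 206, median 85.8 (log2 difference -3.70, SE 0.40, limma adjusted p = 0.000473). The lower count ranged from 7 to 10 over the 27 alternatives.

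Mmp9, a gelatinase, was 26.5 and 2.6 in NIC and 89.1 to 407, median 229, in the PRMT libraries (log2 difference -4.46, SE 0.64, limma adjusted p = 0.00135). Mmp14, a membrane-bound collagenase, was 2457 and 2361 against 3855 to 6994, median 5849 (log2 difference -1.29, SE 0.15, limma adjusted p = 0.000562). Of 16 metalloproteinases and inhibitors 10 were lower (15.4% of all genes tested were). Mmp13 was the 1 higher member, at 1.49 (SE 0.33, limma adjusted p = 0.00939). The list medians against NIC-Prmt1, NIC-Carm1 and NIC-Prmt6 were -0.76, 0.06 and -1.64, so the list as a whole was not lower than in NIC-Carm1. Without the group NIC-Prmt6, 3 were lower. The lower count was 4 without NIC replicate 2 and 2 with the PRMT libraries as 1 group.

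Pericytes, the contractile cells around small vessels, gave the next set. Kcnj8, a potassium channel subunit, was 113 and 138 in NIC and 327 to 821, median 585, elsewhere (log2 difference -2.13, SE 0.12, limma adjusted p = 4.88e-05). Rgs5, a regulator of G proteins, was 616 and 712 against 1355 to 2822, median 2105 (log2 difference -1.65, SE 0.12, limma adjusted p = 0.000111). Both were named for keeping NIC below all 8 PRMT libraries. Of 8 pericyte genes 7 were lower (15.4% of all genes tested were), or 3 with the PRMT libraries as 1 group. The summed CPM of these genes was 393 to 416 in NIC and 548 to 1403 in the PRMT libraries, without overlap.

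Other stromal lists passed in number but did not set NIC apart from every PRMT group. Lower in NIC were 16 of 21 collagens, 10 of 12 fibroblast genes and 9 of 10 endothelial genes, beside 15.4% of all genes tested. No member of these 3 lists was set apart. Their medians against NIC-Carm1 were -0.03, 0.047 and -0.18, close to 0, while those against NIC-Prmt6 were -1.30, -1.55 and -1.36. With the PRMT libraries as 1 group no member of these 3 lists passed by limma, and without the group NIC-Prmt6 4, 1 and 5 did. Without NIC replicate 1 they were 8, 3 and 4, and without NIC replicate 2 the collagens were 9 and the fibroblast genes 6. Summed CPM of the fibroblast genes was 1184 to 1307 in NIC and 915 to 4445 in the PRMT libraries. For the endothelial genes it was 1329.7 to 1621 and 1458 to 3947, so both overlapped.

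Interferon-stimulated genes had the same pattern upward. Of 26, 13 were higher (15.1% of all genes tested were) and 0 set apart. Their medians against NIC-Prmt1, NIC-Carm1 and NIC-Prmt6 were 1.36, 0.08 and 0.90. Irf7, a factor of the interferon response, was 3829 and 6428 in NIC and 740.5 to 3533, median 1238, elsewhere (log2 difference 1.68, SE 0.22, limma adjusted p = 0.00102). NIC-Carm1 replicates 2 and 3, at 3429 and 3533, came nearest to it. The count was 2 without NIC replicate 2 and 0 by limma with the PRMT libraries as 1 group.

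**Figure D4:**
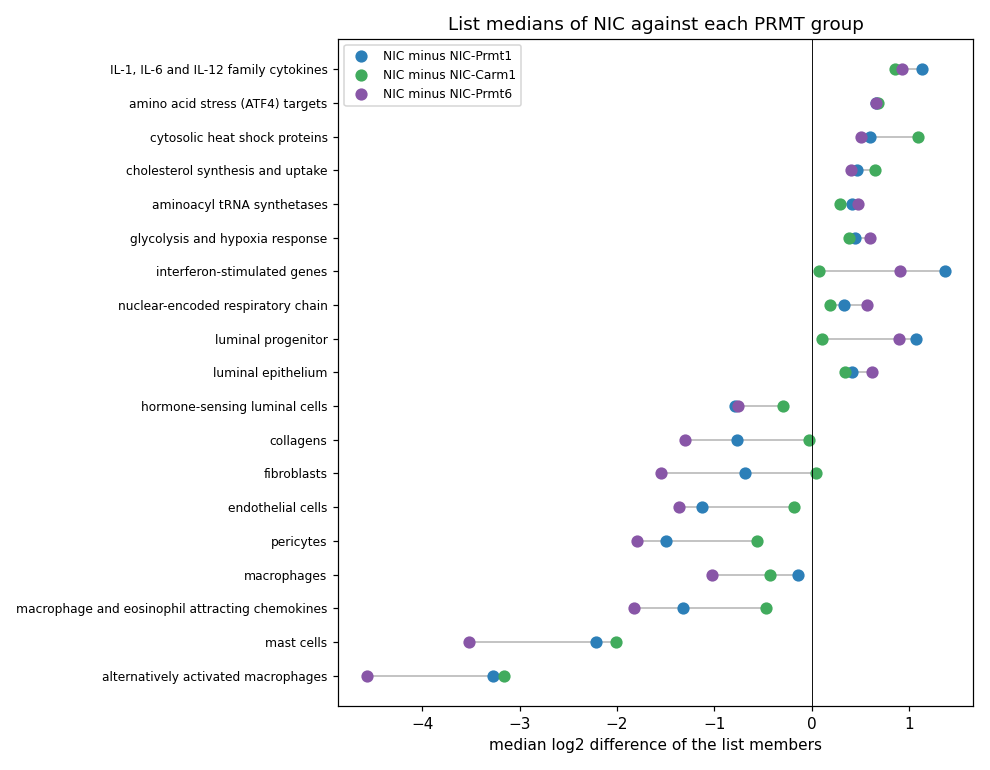
Median log2 difference of the members of 19 gene lists (vertical axis) for NIC minus NIC-Prmt1, NIC-Carm1 and NIC-Prmt6, 1 point per comparison, all sharing the 2 NIC libraries. Points of the ATF4 list nearly coincide at 0.66 to 0.68, while those of collagens run from -1.30 to -0.03.

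Epithelial genes differed by layer and kind. Of 14 luminal epithelium genes 6 were higher (15.1% of all genes tested were) and 0 lower. Epcam, an epithelial adhesion molecule, was 47439 and 50031 in NIC and 17215 to 25941, median 24461, elsewhere (log2 difference 1.17, SE 0.14, limma adjusted p = 0.000721). Cdh1, E-cadherin, was 22362 and 17826 against 10592 to 12675, median 11517 (log2 difference 0.78, SE 0.10, limma adjusted p = 0.00107). The summed CPM of this list was 9854 to 11952 in NIC and 6458 to 9705 in the PRMT libraries, so genes of the labelled cell type were read in all 10. The count was 3 without NIC replicate 1, 3 with the PRMT libraries fitted as 1 group and 3 with near-identical libraries averaged. The part of the share of epithelial cells in the stromal and immune differences was not tested.

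Luminal progenitor genes gave 6 higher of 11 (15.1% of all genes tested were), Plet1 among them, and 0 lower. With the PRMT libraries fitted as 1 group, 1 was higher. Lcn2, a secreted lipocalin, was 77741 and 94412 in NIC and 20234 to 63506, median 40225, elsewhere (log2 difference 1.28, SE 0.23, limma adjusted p = 0.00397). Csn3, kappa casein, was higher by 1.25 (SE 0.23, limma adjusted p = 0.00415). NIC-Carm1 came nearest, with a median of 0.11. Of 11 hormone-sensing luminal genes 3 were lower (15.4% of all genes tested were) and 0 higher. The lower count was 7 without NIC-Carm1 replicate 1 and 1 without NIC replicate 2, and 0 passed with the PRMT libraries as 1 group. Of 12 basal genes 3 were lower, among them Acta2, the smooth muscle actin of myoepithelium, at -1.02 (SE 0.15, limma adjusted p = 0.00167), which differed among the PRMT groups, while 15.4% of all genes tested were lower. The basal count was 1 without NIC replicate 1, again 1 on leaving out NIC replicate 2, 6 without NIC-Prmt1 replicate 2 and 0 with the PRMT libraries as 1 group. Summed CPM of the basal genes was 2405 to 2662 in NIC and 2286 to 7944 in the PRMT libraries, and that of the hormone-sensing genes 746 to 906 and 739.9 to 1948, so both overlapped.

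Growth factor genes were also read. Among the EGF family ligands 6 of 10 were higher (15.1% of all genes tested were) and 0 lower. Their summed CPM overlapped, at 399 to 442 in NIC and 229 to 477 in the PRMT libraries. All 3 NIC-Prmt1 libraries, at 455 to 477, lay above both NIC libraries. Epgn, epigen, was 463 and 274 in NIC and 28.8 to 144, median 109.7, elsewhere (log2 difference 2.11, SE 0.24, limma adjusted p = 0.000512) and was the 1 set-apart ligand. Tgfa, transforming growth factor alpha, was 1608 and 1474 against 622 to 911, median 693 (log2 difference 1.04, SE 0.13, limma adjusted p = 0.00078). Leaving out NIC replicate 1 gave a count of 3, as did leaving out NIC replicate 2 or NIC-Prmt6 replicate 1, and 1 ligand passed with the PRMT libraries as 1 group. Of the 4 ErbB receptors, Erbb3 and Erbb4 were higher by 0.56 (SE 0.13, limma adjusted p = 0.0094) and 0.84 (SE 0.22, limma adjusted p = 0.0173), and Erbb2 did not pass (0.10). Against NIC-Carm1 alone, Erbb3 and Erbb4 differed by 0.19 and 0.23 and did not pass (limma adjusted p = 0.403 and 0.574). The summed CPM of the 4 receptors was 743 to 906 in NIC and 458 to 1302 in the PRMT libraries, highest in NIC-Carm1. Neither Erbb3 nor Erbb4 passed without NIC replicate 1 or with the PRMT libraries as 1 group, and Erbb4 did not pass without NIC replicate 2.

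Immediate early genes, which cells switch on within minutes of a stimulus, were lower or did not pass but for 1. Of 21, 8 were lower and 1 higher, beside 15.4% and 15.1% of all genes tested. The list medians against NIC-Prmt1, NIC-Carm1 and NIC-Prmt6 were -0.46, 0.27 and -0.44. The list as a whole was thus not lower than in NIC-Carm1. Klf2, a zinc finger factor, was 825 and 867 in NIC and 1254 to 4982, median 2819.6, in the PRMT libraries (log2 difference -1.75, SE 0.26, limma adjusted p = 0.00157). Btg2, an antiproliferative gene, was 7675 and 8333 against 16231 to 27836, median 22165 (log2 difference -1.38, SE 0.16, limma adjusted p = 0.000556). Zfp36, which destabilises cytokine mRNAs, was also set apart, at -1.19 (SE 0.19, limma adjusted p = 0.00237). Fos was lower, at -0.99 (SE 0.19, limma adjusted p = 0.00517), while Jun and Junb did not pass (-0.09 and -0.14). The lower count was 3 without NIC replicate 2 and 3 with the PRMT libraries as 1 group. Of 23 mitosis genes, 0 passed by limma or edgeR, 1 by DESeq2 and 3 by voom, with 1 higher at an unadjusted p under 0.05. Without NIC-Prmt1 replicate 2, 15 of them passed as higher in NIC. The mitosis medians against NIC-Prmt1, NIC-Carm1 and NIC-Prmt6 were 0.77, -0.61 and 0.92. Summed CPM of the mitosis genes was 404 to 444 in NIC and 162 to 724 in the PRMT libraries. The NIC-Carm1 libraries, at 709.5 to 724, all lay above NIC.

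**Figure D5:**
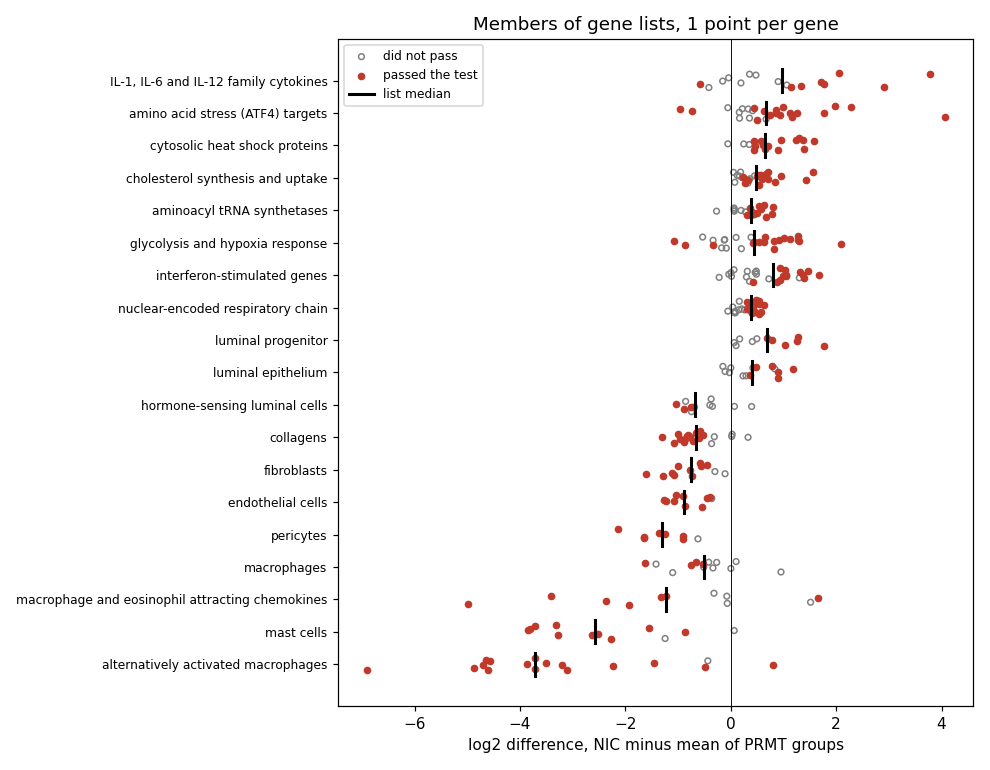
Log2 difference of NIC from the mean of the PRMT groups for each member of 19 gene lists, 1 point per gene, filled where the gene passed, with a bar at the list median. The medians run from -3.71 for alternatively activated macrophages and -2.57 for mast cells to 0.98 for the cytokines.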

How the data were processed

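The authors' deposited table holds normalised read counts of 16290 genes, here treated as a signal. Reads were aligned with TopHat2 2.0.10 to mm10, counted with HTSeq 0.6.0 and scaled with DESeq 1.18.0, per the submitters' processing notes. Dividing each library's values by the value of 1 read gave whole reads for 100% of values (tolerance 0.01), 21589274 to 30260921 per library. The highest library of every gene held at least 10 reads. Strandedness of counting is not given in the sources used here, so overlapping and antisense genes cannot be told apart.

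The test was limma 3.58.1 (trend) in R 4.3.3 on log2(deposited value + 1), with 4 group means, all 10 libraries, 6 residual degrees of freedom and 15694 genes. A moderated F test compared the 3 PRMT groups. Summed CPM use recovered reads. The alternatives, 27 in all, were other filters, pseudocounts, scalings, edgeR 4.0.16, DESeq2 1.42.0 and voom on the recovered reads, a replicate block, other weights, and fits without single libraries or groups. On simulated data for 15643 genes the test called 70% of 2-fold and 95% of 4-fold changes, with 9 false calls of 174. The simulation gave the 3 PRMT groups equal means and drew each library independently, unlike the data here. Its share of false calls therefore does not carry over to them.

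Genes named are Prmt1, Carm1 and Prmt6, the 15 higher and 15 lower set-apart genes with a mean of at least 50 ranked by the smallest of their 3 group differences, and, per gene list, the 2 members with the smallest adjusted p that passed without overlap. Further list members are given by their list's values. There were 58 lists of 912 entries, 43 of them without a tested gene. The members and lists were chosen with earlier results of these data known. Gene positions come from GENCODE M21 (GRCm38, the same assembly as mm10), and promoters from RefSeq (GRCm38.p6).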

Additional observations from a re-analysis of the deposited data

Results flagged for a closer look

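For 9 of 33 genes (the 3 targeted and 30 ranked ones) the size of the difference from NIC differed among the 3 PRMT groups by the moderated F test of limma. Prmt6 (adjusted p = 0.000417) was 873 and 909 in NIC-Prmt6, above both NIC libraries, and 224 to 355 in NIC-Prmt1 and NIC-Carm1, below both. Among genes higher in NIC, Il12b (adjusted p = 0.0403 by limma) differed from NIC-Prmt1, NIC-Carm1 and NIC-Prmt6 by 5.16, 3.71 and 2.50 on the log2 scale. The values for Mthfd2 (adjusted p = 0.0326 by limma) were 2.19, 2.10 and 1.61, those for Trib3 (adjusted p = 0.00952 by limma) 2.42, 1.55 and 2.88, and those for Scd1 (adjusted p = 0.0374 by limma) 2.85, 1.54 and 2.10.

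Among the genes lower in NIC, the largest difference was from NIC-Prmt6 in all 4: -5.73 for F13a1 (adjusted p = 0.0239 by limma), -4.91 for Clec10a (adjusted p = 0.0188 by limma), -4.71 for Mgl2 (adjusted p = 0.0101 by limma) and -4.20 for Pf4 (adjusted p = 0.0298 by limma).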

How the results depend on the processing

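None of the 111 named genes changed sign against the main fit where either fit passed. Counts of genes and of list members were not open to such a reversal, and many of them moved. The count of genes changed was 4792 (2368 higher, 2424 lower) and became 857 (469 and 388) with the 8 PRMT libraries fitted as 1 group, 2137 (992 and 1145) with near-identical libraries averaged and 2374 (1269 and 1105) without the group NIC-Prmt6. Leaving out 1 library gave 1915 to 5829 changed, 860 to 2810 higher and 1055 to 3019 lower, the low ends without NIC replicate 2, and 2333 changed without NIC replicate 1. Genes set apart upward (97) numbered 62 with the PRMT libraries as 1 group, 62 to 107 leaving out 1 library (62 without NIC replicate 1) and 393 without the group NIC-Carm1. Those set apart downward (201) numbered 117 with 1 PRMT group, 121 with a minimum of 50, 127 with a pseudocount of 5, 699 without the group NIC-Carm1 and 164 to 272 leaving out 1 library. Fewer groups leave fewer limits to meet; other causes were not tested.

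edgeR called 4739 genes, DESeq2 5283 and voom 5117, and 6695 had an unadjusted p under 0.05. Replicate numbers did not pair the samples: deviations of same-numbered samples correlated at -0.1319 to 0.1001 over 13 pairs. A fit with the replicate block called 4185 genes (2120 higher, 2065 lower; 90 and 187 set apart). Of 109 named genes that passed, 64 passed in every alternative, and of the 30 ranked genes 29 did, all but Slc6a14. The fit without both NIC-Prmt1 libraries with skin genes was chosen after seeing the data.

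Depth limits genes of few reads, such as Ccl24 in NIC.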

Other observations

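Some set-apart genes outside the ranking and the lists were picked after their values were seen. Fgf5, a fibroblast growth factor, was 36.9 and 32.5 in the NIC libraries and from 0 to 2.07 in the 8 PRMT libraries. Ifnb1, interferon beta, was 15.1 and 18.2 against 0 to 2.58. Tlr2, a receptor for bacterial lipoproteins, was 4808 and 4657 against 1045 to 2400 (log2 difference 1.63, SE 0.22, limma adjusted p = 0.00109). Eif4ebp1, a repressor of translation, was 1937 and 1933 against 519 to 983 (1.40, SE 0.15, limma adjusted p = 0.00039). In each of these genes both NIC libraries lay above all 8 others, as the set-apart rule requires. For Fgf5 and Ifnb1 only the NIC libraries reached the minimum value for testing. Genes this low in the PRMT libraries were tested only where both NIC libraries reached it. The separation of Fgf5 and Ifnb1 is therefore partly fixed by that filter.

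The interleukins Il4 and Il13, which lie 12655 bases apart on chromosome 11 and drive the alternative activation of macrophages, were low everywhere. Il4 was listed at 0 in both NIC libraries and from 2.47 to 10.9 in the PRMT libraries. Il13 was 0.945 and 3.90 in NIC and 6.37 to 28.1 in the PRMT libraries. Rasgrp4, a signalling protein of mast cells, was 21.7 and 6.50 against 24.8 to 225 (log2 difference -2.92, SE 0.53, limma adjusted p = 0.0039). Aplnr, the apelin receptor of vessels, was 208 and 385 against 769 to 2330 (-2.06, SE 0.25, limma adjusted p = 0.00076), and Apln, its ligand, was 52.9 and 52.0 against 82.7 to 251. Both sides of this ligand and receptor pair were lowest in NIC.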
